A study of Mus musculus with 2 samples.

Results

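The regions described here are contact domain boundaries of mature olfactory sensory neurons that lay far from the start of any GENCODE gene record. They are called clear here for their strength score alone. They were selected on the authors' boundary strength, which had to be at least 0.5 and below 2.0, and on gene annotation. No 5′ end of a gene record of any biotype (GENCODE mouse release 21, GRCm38) lay within 50 kb of the boundary midpoint, and the midpoint lay outside protein-coding gene bodies of 500 kb or more. The rule took 426 of the 8058 boundaries in the deposited list (5.29%), which is 11.2% of the 3813 boundaries of those strengths. Each boundary is a 5 kb interval of the genome.

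The map came from in situ Hi-C, in which chromatin is fixed and cut and neighbouring DNA ends are joined, so that each joined pair records a contact in the nucleus. The cells, mature olfactory sensory neurons, were obtained by FACS from olfactory epithelium of adult OMP-GFP mice (strain 129P2/OlaHsd, mixed sex, no treatment), in which a green fluorescent reporter follows the olfactory marker protein gene. There was 1 group with 2 biological replicates, of 3000000 and 1500000 cells, fixed in 1% formaldehyde and cut with DpnII. The authors pooled both into 1 contact matrix and called 1 boundary list on it, so no value below has a spread between replicates and no test between conditions was possible. Contact data carry no expression values, and the identity of the cells therefore rests on the labels. The number of contacts behind each boundary is not known here.

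In mammalian nuclei the chromatin fibre folds into contact domains, stretches of DNA that touch themselves more often than their surroundings. Many domain borders hold the zinc finger protein CTCF, which halts the cohesin ring as it extrudes a loop, and a loop is held best where the CTCF sites at its ends face each other. Other borders coincide with active promoters or with changes between active and silent chromatin. Gene deserts, the long stretches without gene starts, often surround developmental regulators and neuronal adhesion genes in the mouse genome.

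The sequences that the results on CTCF turn on are exact matches to the CTCF core consensus, which is 14 bases long and was searched on both strands. By a fixed rule, the match nearest to the midpoint was taken from the 8 strongest boundaries with a match within 20 kb, and 7 of the 8 are shown. Each sequence is the GRCm38.p6 reference (RefSeq), not the DNA of the mice used, read 5′ to 3′ on the strand of the match. The capitals mark the core, and each name gives the coding genes that start to the left and right.
Igsf11 and Lsamp, chr16:39062769-39062808, minus strand: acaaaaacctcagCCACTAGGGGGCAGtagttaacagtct
Zdhhc25 and Brd1, chr15:88651203-88651242, minus strand: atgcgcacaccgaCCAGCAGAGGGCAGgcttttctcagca
Mtx2 and Hnrnpa3, chr2:75590398-75590437, minus strand: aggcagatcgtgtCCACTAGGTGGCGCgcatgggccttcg
Amigo2 and Rpap3, chr15:97667550-97667589, plus strand: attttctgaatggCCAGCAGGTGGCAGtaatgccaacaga
Syk and Auh, chr13:52658609-52658648, plus strand: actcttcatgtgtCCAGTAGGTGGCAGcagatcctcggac
Plcb4 and Lamp5, chr2:135948047-135948086, minus strand: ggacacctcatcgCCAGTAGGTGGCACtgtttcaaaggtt
Il21r and Gtf3c1, chr7:125645666-125645705, minus strand: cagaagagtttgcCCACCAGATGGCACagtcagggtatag

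Of the 8 matches, 6 pointed away from their boundary, which means that a plus-strand match lay to the right of the midpoint or a minus-strand match to its left. The matches at the boundaries between Mtx2 and Hnrnpa3 and between Plcb4 and Lamp5 pointed toward the midpoint. The matches lay on either side of the midpoint, at distances from 0.567 kb (Plcb4 and Lamp5) to 16.1 kb (Syk and Auh), both to the right. The farthest to the left lay 14.7 kb away (Igsf11 and Lsamp). None of the 8 lay in soft-masked sequence, the lower-case letters by which the reference marks repeats. A match is a description of the reference letters and not a measured binding site.

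Boundary strength, which chose these boundaries and is given only as a description, ran from 0.5005 to 1.986 with a median of 0.817 (interquartile range 0.626 to 1.17). The other boundaries within the same limits had a median of 0.884. Of the 426, 91 lay under 0.6, 150 reached 1.0 and 48 reached 1.5. Just outside the limits, the nearest boundaries under the same gene rule had strengths of 0.4994 and 2.042. The innermost boundary that was kept lay 50019 bp from a gene start, and the nearest one left out lay at 49863 bp. The longest coding gene body around a kept boundary measured 499300 bp, the shortest that led to exclusion 509337 bp, and 68 boundaries were left out for such a body alone.

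**Figure D1:**
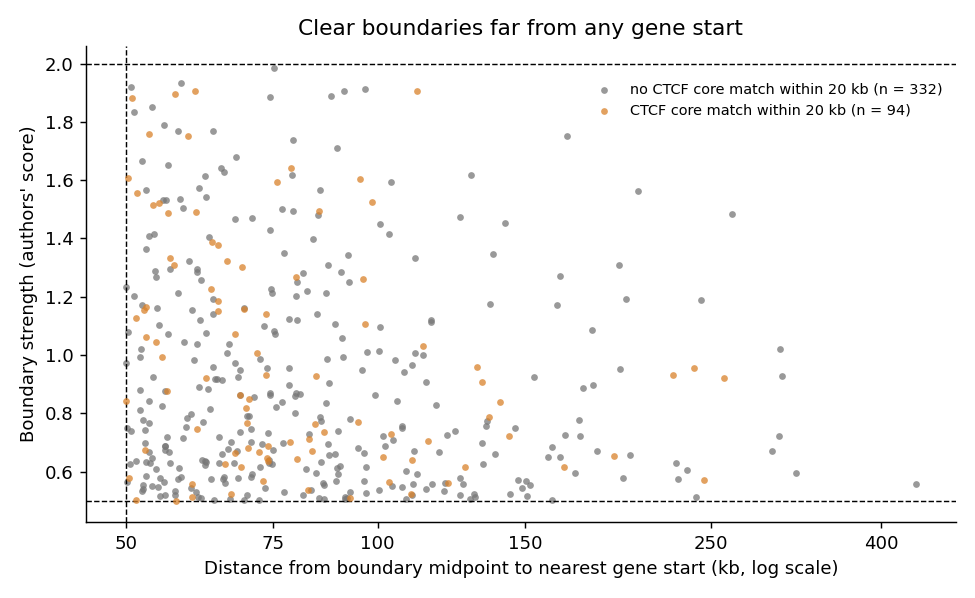
Boundary strength (authors' score) against the distance from the boundary midpoint to the nearest gene start (kb, log scale) for each of the 426 boundaries; orange points have a CTCF core match within 20 kb (94) and grey points do not (332), and dashed lines mark the limits of the rule. Most points lie near the left edge and toward the lower limit of strength, and the most remote boundary, at 440 kb, has a strength of 0.556.

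Clear boundaries were sparse in sequence far from gene starts, and weak ones were not. The gene rule held for 585.5 Mb of the 2557 Mb of callable sequence (22.9%), callable meaning 5 kb bins without undetermined bases. In that sequence the boundaries of strength 0.5 to below 2.0 numbered 0.728 per Mb, against 1.72 per Mb for the same strengths elsewhere, a ratio of 0.424. The density was lower far from starts on 20 of 20 chromosomes. Boundaries below 0.5 numbered 1.72 per Mb far from starts, 1004 in all, and 1.502 per Mb elsewhere. Only 16 boundaries of 2.0 or more met the gene rule.

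The density of clear boundaries was lower in each more distant class from the nearest gene start, and that of weak ones was not. It was 0.977 per Mb where the nearest start lay 50 to 75 kb away (217 boundaries) and 0.729 per Mb at 75 to 100 kb (94 boundaries). It was 0.557 per Mb at 100 to 150 kb (72 boundaries), 0.441 per Mb at 150 to 250 kb (35 boundaries) and 0.310 per Mb beyond 250 kb (8 boundaries). Weak boundaries numbered 1.64, 1.72, 1.64, 1.89 and 2.17 per Mb in the same classes. The clear ones therefore made up 37.3% of clear and weak boundaries together in the nearest class and 12.5% in the most distant one, where they number only 8.

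**Figure D2:**
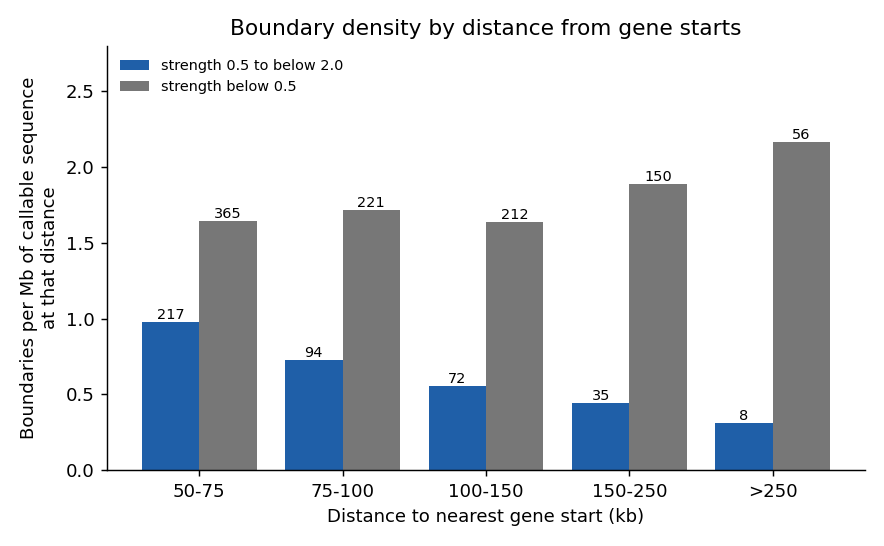
Boundaries per Mb of callable sequence by distance to the nearest gene start (kb), for strengths of 0.5 to below 2.0 (blue) and below 0.5 (grey); the number above each bar is the count of boundaries. The blue bars step down from 0.977 to 0.310 per Mb, and the grey bars lie between 1.64 and 2.17 per Mb.

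Chromosomes differed in how many clear remote boundaries they carried. Autosomes had 0.736 ± 0.212 per Mb (SD over 19 autosomes), from 0.371 on chromosome 19 and 0.372 on chromosome 12 to 1.13 on chromosome 18. Chromosome 2 held the most, 37, and chromosome 19 the fewest, 4. The X chromosome had 0.538 per Mb, inside the spread of the autosomes, while its weak remote boundaries, at 2.32 per Mb, exceeded the 1.65 ± 0.198 per Mb of the autosomes. On X the clear ones made up 18.8% of clear and weak remote boundaries together, against 30.5 ± 6.76% on the autosomes. Chromosomes 12 (18.87%) and 19 (19.05%) were close to X in this share. The other boundaries of the same strengths were also sparse on X, below the 1.404 per Mb of the lowest autosome. The low density on X was thus not particular to remote boundaries. The mice were of mixed sex, and the part of contact depth on X in these values was not tested.

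CTCF core matches were more frequent at these boundaries than in comparable sequence, though most boundaries had none. A match lay within 20 kb of the midpoint at 94 of 426 (22.1%, 95% exact Clopper-Pearson interval 18.2 to 26.3%). All such intervals cover the counting of regions or matches only. Of all callable bins 9.1% had a match that close, and of the callable bins under the same gene rule 4.94%. The share at the boundaries exceeded that of the bins under the gene rule on 20 of 20 chromosomes. Weak boundaries under the same gene rule reached 6.08% (interval 4.68 to 7.74%). Boundaries of the same strengths with a coding gene start within 20 kb, 1673 in number and called promoter boundaries below, reached 28.9% (interval 26.7 to 31.1%), and the remote share was below theirs on 14 of 20 chromosomes.

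The match share was also set against bins of like distance and, separately, of like base composition, which were not held together. By distance of the nearest gene start (50 to 75, 75 to 100, 100 to 150, 150 to 250 and over 250 kb), it was 25.4, 19.2, 20.8, 14.3 and 12.5%. Bins under the gene rule had 6.40, 5.35, 4.19, 2.55 and 1.49% in those classes. The exact interval lay above the bins in the first 4 classes, with 5 of 35 the smallest count among them (interval 4.81 to 30.3%), and the class over 250 kb rests on 1 of 8 (interval 0.316 to 52.7%). Boundary bins with under 38% GC had a match at 11 of 87 (12.6%, interval 6.48 to 21.5%) against 2.16% of such bins. For GC from 38 to below 42% the share was 30 of 153 (19.6%, interval 13.6 to 26.8%) against 3.88%. For 42% or more it was 53 of 186 (28.5%, interval 22.1 to 35.6%) against 9.99%. Weak boundaries in those GC classes had 1.66, 4.94 and 17.9%. In proportion, clear and weak boundaries thus differed least at 42% GC or more.

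Within the remote boundaries, the match share was 14.95% in the weakest quartile of strength (interval 8.80 to 23.1%) and 23.4, 24.5 and 25.5% in the others. These intervals overlap, so no order among the quartiles can be read from them. Boundaries with a match had a median strength of 0.913 and those without one 0.785. Of the 94 boundaries with a match, 75 had exactly 1 and 19 had more, with at most 4.

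**Figure D3:**
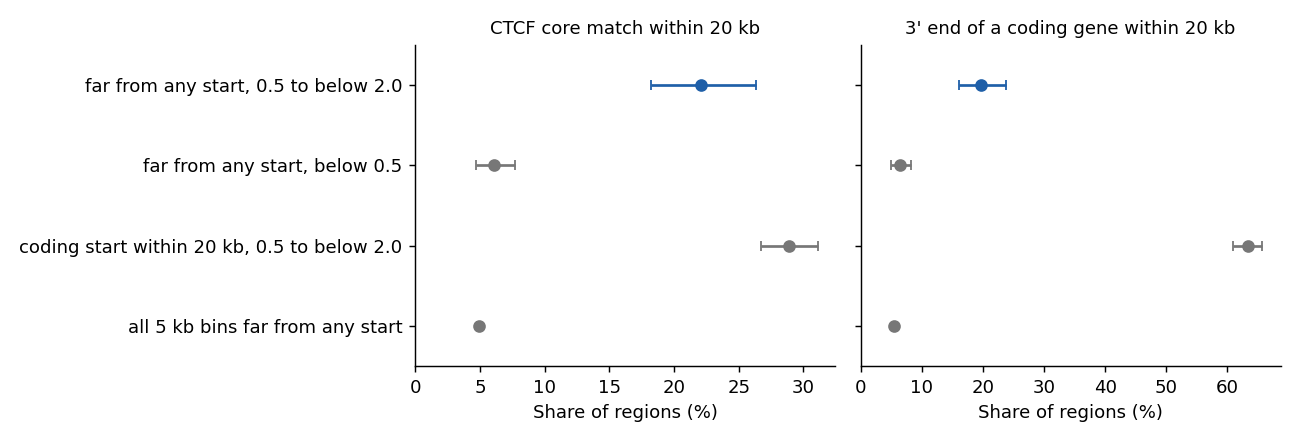
Share of regions (%) with a CTCF core match (left) or the 3′ end of a coding gene (right) within 20 kb, for remote boundaries (blue) and comparison sets (grey); bars are 95% exact Clopper-Pearson intervals, which cover counting only. Remote clear boundaries, at 22.1 and 19.7%, lie above remote weak boundaries (6.08 and 6.47%) and above all remote bins (4.94 and 5.49%).

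Within 50 kb, the matches pointed away from the boundary more often than toward it. Each match was assigned to its nearest boundary. Within 20 kb, 70 of 116 matches pointed away (60.3%, interval 50.8 to 69.3%), with more away than toward on 12 chromosomes, fewer on 3 and equal numbers on 5. This interval only just excludes an even split, and it includes one with transcript starts (42.4 to 68.8%), RefSeq starts as well (46.1 to 69.5%), strengths from 0.7 (46.0 to 68.8%), coding bodies of 300 kb or more left out (48.5 to 69.2%) and matches within 10 kb (41.8 to 67.2%). Within 50 kb the count was 141 of 210 (67.1%, interval 60.3 to 73.5%). Matches inside the boundary bin, up to 2.5 kb from the midpoint, were split evenly, with 12 of 23 pointing away. From 2.5 to 10 kb 23 of 41 pointed away, from 10 to 20 kb 35 of 52 (67.3%), and from 20 to 50 kb 71 of 94 (75.5%, interval 65.6 to 83.8%). Weak boundaries under the same gene rule had a like share within 20 kb, where 40 of 66 pointed away (60.6%, interval 47.8 to 72.4%), and from 10 to 20 kb 18 of 25 did (72.0%, interval 50.6 to 87.9%). From 20 to 50 kb they had 37 of 75 pointing away (49.3%, interval 37.6 to 61.1%), and promoter boundaries had 399 of 558 (71.5%).

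Counted around the midpoint without regard to other boundaries, the same pattern appeared on each side. Matches were counted here in 5 kb steps, and the distances given are the centres of the steps. From 15 to 80 kb to the left, 70 matches lay on the minus strand and 26 on the plus strand (72.9% minus, interval 62.9 to 81.5%). From 15 to 80 kb to the right, 74 lay on the plus strand and 24 on the minus strand (75.5% plus, interval 65.8 to 83.6%). In the steps centred up to 10 kb from the midpoint the strands were even, 39 plus and 38 minus. Around weak boundaries the left side held 34 minus and 32 plus matches and the right side 41 plus and 37 minus. The left and right sides of the clear boundaries were thus mirror images in strand, and those of the weak boundaries were close to even.

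**Figure D4:**
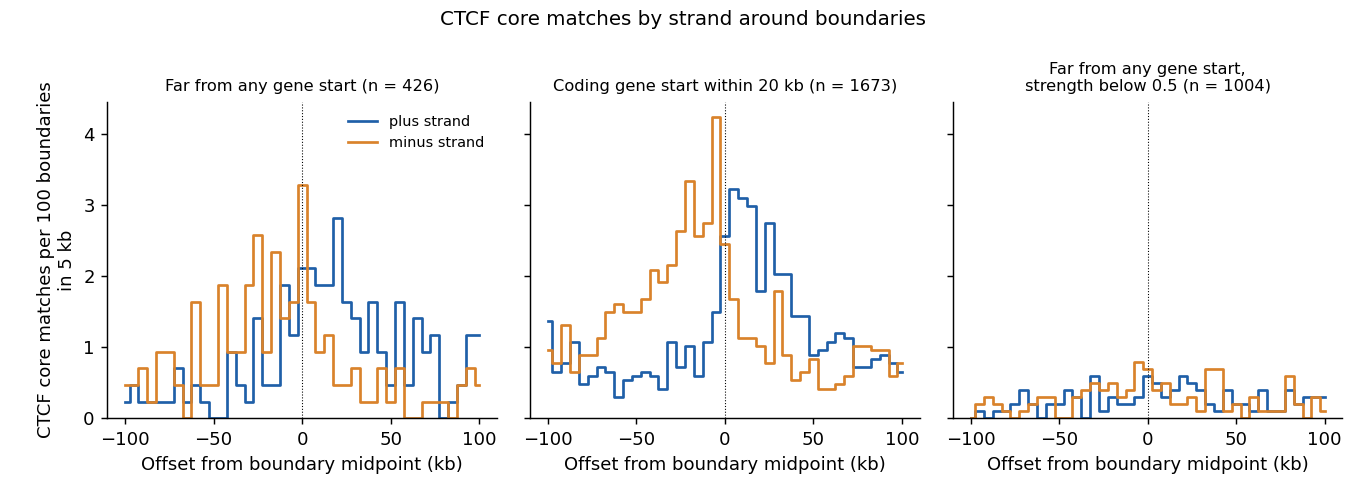
CTCF core matches per 100 boundaries in 5 kb steps against the offset from the midpoint (kb), by strand, for remote boundaries of strength 0.5 to below 2.0 (left, 426), promoter boundaries of the same strengths (middle, 1673) and remote boundaries below 0.5 (right, 1004). In the left and middle panels minus-strand matches dominate left of the midpoint and plus-strand matches right of it, and in the right panel both strands stay low and close together.

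At single boundaries the arrangement varied. Of the 94 with a match within 20 kb, 50 had matches that pointed away on 1 side only, 5 had matches pointing away on both sides, 31 had matches pointing toward the midpoint only and 8 were mixed. The 5 with outward matches on both sides lay between Syk and Auh (strength 1.753), Astn1 and Pappa2 (1.032), Ccdc50 and Fgf12 (0.930), Neurl1a and Sh3pxd2a (0.687), and Arl15 and Ndufs4 (0.566). They were chosen after their values were seen, and their strengths span most of the allowed range.

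Few of the matches lay in repeats, and those that did mostly shared 1 core. Of the 116 matches within 20 kb, 12 were soft-masked (10.3%, interval 5.46 to 17.4%), against 146 of 792 matches under the gene rule (18.4%, interval 15.8 to 21.3%) and 788 of 6562 in the genome (12.01%). At weak boundaries the share was 12 of 66 (18.2%, interval 9.76 to 29.6%), and at promoter boundaries 7.86%. The most frequent core at the remote boundaries, CCAGCAGAGGGCAG, gave 10 of the 116 matches, of which 7 were soft-masked. In the genome 190 of the 347 matches to this core were soft-masked (54.8%), against 9.62% of the matches to all other cores. The 6 shown next were chosen after their values were seen, to compare the letters around the shared core, which is in capitals.
Il6st and Il31ra, chr13:112530181-112530220, minus strand: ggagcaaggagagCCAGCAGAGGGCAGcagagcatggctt
Chd7 and Clvs1, chr4:9135955-9135994, plus strand: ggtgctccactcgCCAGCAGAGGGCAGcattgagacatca
Hs3st1 and Rab28, chr5:41052118-41052157, plus strand: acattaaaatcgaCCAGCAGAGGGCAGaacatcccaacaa
Pde4d and Rab3c, chr13:110040263-110040302, minus strand: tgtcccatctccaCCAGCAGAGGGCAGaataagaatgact
Clic5 and Supt3, chr17:44256807-44256846, minus strand: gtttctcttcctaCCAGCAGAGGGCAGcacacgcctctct
Igsf21 and Arhgef10l, chr4:140547662-140547701, minus strand: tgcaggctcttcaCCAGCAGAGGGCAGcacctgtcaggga

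Over the 40 bases printed, the other sequences had 18 to 22 bases in common with the first, and 14 of these are the core. Compared position by position without gaps, the other flanks were therefore not copies of the first over this length. The other sequences were not compared among themselves. Of the 6 matches, 3 pointed away from their boundary and 3 toward it.

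The 3′ ends of coding genes lay near these boundaries more often than near other sequence under the same gene rule. A coding gene end lay within 20 kb of 84 of 426 (19.7%, interval 16.0 to 23.8%), against 5.49% of bins under the gene rule and 6.47% of weak boundaries (interval 5.03 to 8.18%). Of all callable bins 22.9% had one, of the other boundaries of the same strengths 46.0% and of promoter boundaries 63.4%. The excess over the bins under the gene rule held in each class of distance to the nearest start. At 50 to 75 kb the share was 25.8% at boundaries and 8.07% over bins, at 75 to 100 kb 17.0 and 5.28%, and beyond 100 kb 10.4 and 3.17%. The genes that ended there were long, with a median length of 140 kb (interquartile range 84.3 to 226 kb), which follows in part from the rule, since a gene that ends near such a boundary must start over 50 kb from it.

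The boundary midpoint lay on either side of the gene end. It was past the end, in the direction of transcription, at 41 of 84 and before it at the others, with a median of -0.352 kb (interquartile range -9.39 to 8.72 kb). At 23 the end lay within 5 kb. At 21 of the 84, genes on both strands ended within 20 kb. At chr16:28825001-28830000 (1.886) the midpoint lay 1.32 kb before the end of Mb21d2. The bins with a gene end nearby had a median GC content of 45.2%, those without 40.6%. CTCF matches lay within 20 kb of 26 of the 84 (31.0%, interval 21.31 to 41.98%) and of 68 of the other 342 (19.9%, interval 15.8 to 24.5%), intervals that overlap. The part of base composition in the difference was not tested.

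Gene bodies held more of the boundaries than of the bins, mainly beyond 100 kb from a start. The midpoint lay inside a gene body at 166 boundaries (39.0%, interval 34.3 to 43.8%), against 29.3% of bins under the gene rule. Of these, 159 lay in a coding gene (37.3%, interval 32.7 to 42.1%, against 25.6% of the bins) and 7 in noncoding genes only, while 260 lay outside any gene. The share inside a body was 36.5% (interval 27.7 to 46.0%) against 21.6% of bins beyond 100 kb from a start. At 50 to 75 kb it was 41.9% (interval 35.3 to 48.8%) against 36.2%, and at 75 to 100 kb 35.1% (interval 25.5 to 45.6%) against 31.2%, both within counting error of the bins. An exon overlapped 98 of the 426 bins (23.0%, interval 19.1 to 27.3%), against 10.2% of bins under the gene rule.

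CpG islands, the unmethylated CG-rich stretches of most promoters, are kept away by a rule that removes gene starts. A window of 500 bases with at least 55% GC and a CpG observed over expected ratio of 0.65 lay in 1 bin (0.235%, interval 0.00594 to 1.30%). Of bins under the gene rule 0.71% held such a window, a share inside that interval, and of promoter boundaries 19.5%. Annotation beyond the rule did reach some of these boundaries. A RefSeq gene start lay within 50 kb of 131 (30.8%), against 21.5% of bins under the gene rule and 17.5% of weak boundaries. The 5′ end of a GENCODE transcript record, rather than a gene record, lay within 50 kb of 148 (34.7%, interval 30.2 to 39.5%), against 16.1% of bins under the gene rule. With transcript starts excluded as well, 278 boundaries remained, and 18.4% of these had a CTCF match against 3.96% of the matching bins. No CTCF match, coding gene end, CpG island window or RefSeq start was found at 198 of the 426 (46.5%, interval 41.7 to 51.3%), against 71.2% of bins under the gene rule.

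The boundary bins were richer in GC and poorer in repeats than the bins under the same gene rule, though close to all callable bins. Their mean GC content was 41.8 ± 4.40% (SD over 426 bins), against 39.9% in bins under the gene rule, 39.2% at weak boundaries and 45.3% at promoter boundaries. Soft-masked sequence made up 33.2% of the bins, against 36.7, 40.6 and 30.0% in those sets. All callable bins had means of 41.8% GC and 34.3% soft-masked sequence. DpnII sites, which set where Hi-C can cut, numbered 2.53 per kb and 2.52 per kb in the bins under the gene rule. The GC content of the 100 kb to the left and to the right differed by a median of 1.03 percentage points (interquartile range 0.467 to 1.78), against 0.744 for bins under the gene rule, 0.716 for weak boundaries and 1.79 for promoter boundaries. The side with the higher GC was that of the nearest gene start at 52.6% of boundaries (interval 47.7 to 57.4%) and 52.4% of bins.

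Clear remote boundaries lay between gene-bearing stretches more often than weak ones did. Between a boundary and the next one on each side, a coding start lay on both sides at 202 (47.4%, interval 42.6 to 52.3%), on 1 side at 167 (39.2%) and on neither at 57 (13.4%, interval 10.3 to 17.0%). Weak boundaries under the same rule had a start on both sides at 17.8% (interval 15.5 to 20.3%) and on neither at 45.7% (interval 42.6 to 48.9%). The difference was present in each class of distance from the nearest start. Starts on both sides were found at 56.7% of clear and 25.5% of weak boundaries at 50 to 75 kb, at 45.7 and 22.2% at 75 to 100 kb, and at 31.3 and 8.85% beyond 100 kb. The stretches themselves were of similar length, with the left and right neighbours a median of 675 kb apart around clear and 650 kb around weak boundaries.

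**Figure D5:**
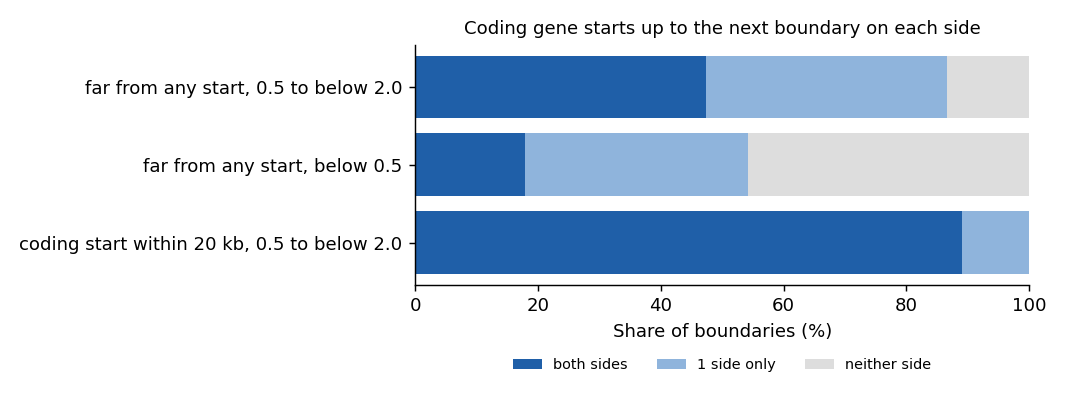
Share of boundaries (%) with coding gene starts on both sides, 1 side or neither side before the next boundary, for remote boundaries of strength 0.5 to below 2.0 (top), remote boundaries below 0.5 (middle) and promoter boundaries (bottom). The dark segment, starts on both sides, covers 47.4, 17.8 and 89.1%.

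The nearest other boundary lay a median of 240 kb away (interquartile range 180 to 315 kb), against 190 kb for promoter boundaries and 215 kb for weak remote ones. Of the 851 neighbours on either side, 351 had a strength of 0.5 or more (41.3%, interval 37.9 to 44.6%), against 56.9% around promoter boundaries and 36.3% around weak remote ones. A pair of remote clear boundaries were direct neighbours in the list 33 times. The 426 lay in 424 spans between consecutive gene starts, with a median length of 227.5 kb. Another boundary of any strength lay in the same span at 65 (15.3%). Spans with 2 remote clear boundaries lay in 2 places, each inside a longer stretch between coding gene starts. On chromosome 6 the span was 928 kb, within the 2959 kb between the starts of Nxph1 and Ndufa4 (strengths 0.512 and 0.556). On chromosome 5 it was 469 kb, within the 729.9 kb between the starts of Arhgap24 and Mapk10 (strengths 0.718 and 1.308). The nearest gene start was that of a coding gene at 149 boundaries and of another biotype at 277, among them processed pseudogenes at 96 and lincRNAs at 61. No coding start lay within 100 kb of 239 and within 500 kb of 31.

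The 15 strongest boundaries had strengths from 1.770 to 1.986. Highest was chr5:118780001-118785000 (1.986), 17.1 kb past the end of Med13l, a Mediator subunit, with the start of Tbx3, a T-box transcription factor of limb and heart development, 888 kb to the right. The boundary at chr12:26535001-26540000 (1.918) lay 68.3 kb from Cmpk2 and 805 kb from Sox11, a transcription factor of immature neurons. Inside Chl1, at chr6:103710001-103715000 (1.913), a boundary overlapped an exon of this adhesion gene, 202 kb from its start and 780 kb from that of Cntn6, another adhesion gene. At chr16:39075001-39080000 (1.905) the flanking starts were those of Igsf11 (185 kb) and Lsamp (907 kb), both adhesion molecules of the immunoglobulin family. None of these 4 had another boundary within 200 kb, and 3 of them had no CTCF match.

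Others among the 15 strongest were boundaries inside Mtus2 (1.905), between Zdhhc25 and Brd1 (1.896), between Mtx2 and Hnrnpa3 (1.880), and between Lrig1 and Kbtbd8 (1.852). Far from coding starts lay chr15:24515001-24520000 (1.887), 1968 kb from the start of Cdh18 and 896 kb from that of Basp1. Its nearest gene start, that of the processed pseudogene Gm48920, was 88.0 kb away. Near Erbb4, a receptor for neuregulins, the boundary at chr1:69180001-69185000 (1.834) lay 74.4 kb upstream of the start, with the start of Ikzf2, a zinc finger transcription factor, 505 kb to its right. The boundary at chr5:83520001-83525000 (1.770) lay 167 kb from the start of Tecrl and 895 kb from that of Epha5, an ephrin receptor of axon guidance. Of the 15 strongest, 4 had a CTCF match within 20 kb.

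The 10 most remote boundaries had strengths from 0.556 to 1.482. The boundary farthest from any gene start, 440 kb, lay between Nxph1 and Ndufa4 at chr6:11465001-11470000 with a strength of 0.556, and 97.3% of its bin was soft-masked. The next, between Pcdh20 and Pcdh9, non-clustered protocadherins, lay 316.5 kb from a start (0.596). Between Gata6, a transcription factor of heart and endoderm, and Rbbp8, a boundary 265 kb from any start reached 1.482, the highest of the 10. Matches to the CTCF core lay near 2 of these 10, inside Myo16 (0.921, pointing toward the midpoint) and between Angpt1, a ligand of blood vessel growth, and Rspo2, a Wnt agonist (0.573, pointing away).

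Genes of neuronal adhesion flanked these boundaries less often than they flanked the sequence far from gene starts as a whole. A boundary counted for a list when its nearest coding start on the left or right belonged to it. Synaptic adhesion and axon guidance genes flanked 25 of 426 (5.87%, interval 3.83 to 8.54%), against 12.8% of bins under the gene rule and 14.6% of weak boundaries. Cadherins and non-clustered protocadherins flanked 15 (3.52%, interval 1.98 to 5.74%), against 6.07% of bins and 8.17% of weak boundaries. The start-free span had a median length of 227.5 kb at the boundaries and 280 kb over the bins, and the part of span length in these shares was not tested. Examples were the boundary between Cntnap5b and Cdh20 at chr1:103890001-103895000 (1.750) and the one inside Chl1 given above.

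The other lists lay close to their background. Developmental transcription factors flanked 25 boundaries (5.87%, against 6.43% of bins), and ion channels and neurotransmitter receptors 23 (5.40%, against 6.83%). An example of the latter lay inside Cacna1e, a voltage-gated calcium channel (1.452), whose other flank is Zfp648. Zinc finger genes flanked 6 (1.41%, against 1.3%), Zfp644 and Hfm1 among the flanks (1.020). Olfactory receptor genes, of which 1092 are coding, flanked 1 boundary (0.235%, against 0.248%), between Olfr412 and Rap1gap2 (0.956). Vomeronasal receptor and ribosomal protein genes flanked 0 of 426, which allows a share of up to 0.862% (exact interval), and 0.126 and 0.455% of bins.

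Genes of the sorted cell type were rare at these boundaries, and their share was close to the background. Of 26 genes for mature olfactory sensory neurons, 3 flanked 4 boundaries (0.939%, against 0.897% of bins). Between Vwf, a clotting factor, and Ano2, the calcium-activated chloride channel of olfactory cilia, the boundary at chr6:125605001-125610000 (1.491) lay inside Vwf and 82.9 kb from the Ano2 start, with 1 CTCF match pointing away. The boundary between Ebf1, a transcription factor of olfactory neurons, and Clint1 had a strength of 0.733 and lay 925 kb from the Ebf1 start. Nfib, the third of these genes, flanked a pair of boundaries of strengths 0.561 and 0.594. Of the genes for other cells of the epithelium, 3 flanked 3 boundaries (0.704%, against 0.65%). These were Trp63, a factor of basal stem cells (1.471), Dcx, a microtubule protein of immature neurons (1.213), and Ptprc, a membrane phosphatase of blood cells (0.914).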

How the data were processed

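The labels describe 2 biological replicates of 1 group, which the authors pooled. The authors deposited 1 boundary list on GRCm38 with a strength score per 5 kb interval. The score is used only to rank or divide boundaries. The sources used here name no caller, mapper or score scale. Contact files were not analysed here. Column 5 gave the score, and no column of per-sample values was left without a sample.

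The members of the set, the gene lists and the measures were chosen with earlier results of these data known. Gene and transcript records came from GENCODE M21 and sequence from GRCm38.p6. Distances run from the boundary midpoint. Shares carry 95% exact Clopper-Pearson intervals, and no chance test was made, because the list has no replicate. Named boundaries were the 15 strongest, the 10 most remote and up to 2 of highest strength for each of 10 gene lists, with others marked in the text. Some of these are not reported here. Alternatives changed the start records, distances, strength limit, large-body limit, chromosomes, motif letters and windows. The scripts used Python 3.11.15, numpy 2.4.6, scipy 1.17.1 and matplotlib 3.10.9, and were tested on simulated data.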

Additional observations from a re-analysis of the deposited data

How the results depend on the processing

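Of 61 alternatives, 45 kept the value within 1.5 times (a count), within the 95% interval of the reported share or median, or within 1 SD over autosomes (the density). The number of boundaries was 278 with transcript starts in place of gene starts, 115 with no start within 100 kb, 1125 with protein-coding starts only and 264 from a strength of 0.7. The density was 0.490 per Mb with no start within 100 kb. The share with a CTCF match was 12.7% within 10 kb and 38.3% within 50 kb (bins under the gene rule 2.54 and 11.5%), 73.5% with 1 mismatch allowed (bins 49.0%) and 0.469% for the reversed consensus (bins 0.0743%), which holds a CG pair and is rare in the genome. The share of matches pointing away was 70.8% of 24 matches with no start within 100 kb, and 50% of 2 matches for the reversed consensus. The soft-masked share was 27.2% with 1 mismatch allowed and 0 of 2 for the reversed consensus. The nearest boundary of strength 0.5 or more lay a median of 382.5 kb away. The share with a coding gene end was 11.03% within 10 kb and 40.9% within 50 kb. The windows, the motif letters and the neighbours change what is counted, and the cause of the other shifts was not tested. Excluding RefSeq starts as well, an alternative chosen after seeing the data, left 295 boundaries with a match share of 20%.

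Strength has no stated error, and how firmly boundaries near a limit lie on their side of it was not tested. The list is pooled, so none of the alternatives leaves out a replicate. No paired analysis was possible because the deposited list has no value per replicate. Contact depth is unknown. Exact matches to a core miss weaker sites and say nothing about binding in these cells. The reference is not the strain of the mice.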

Other observations

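Enhancers annotated by RefSeq lay within 20 kb of 4 of the 426 boundaries (0.939%), against 0.816% of callable bins under the same gene rule. They lay at the boundaries between Klhl25 and Agbl1 (strength 1.158, active in hindbrain), Ubash3b and Sorl1 (0.768, limb and eye), Anp32a and Coro2b (0.538, nose) and Cfap44 and Boc (0.626, responsive to Hedgehog signals). The activity named is the annotation's and was not measured in these cells.

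At the boundary between Piezo2 and Wdr7 (0.674), 4 core matches lay within 20 kb, the most at any of the 426, and none of them pointed away from the midpoint. This boundary was chosen after its values were seen. Over the 426 boundaries, 43 of the 64 forms of the core occurred.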
